A study of Mus musculus with 15 samples.

Results

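The promoters of mitochondrial ribosomal protein genes were taken as all annotated transcription start sites (TSSs) whose gene symbol begins with Mrpl or Mrps followed by a digit. This gave 80 of 25881 promoters, from 78 genes on 17 chromosomes. Of the genes, 49 have Mrpl symbols, named for the large subunit, and 29 Mrps symbols, named for the small subunit. The symbols were taken as given. Whether each protein belongs to that subunit, or to the ribosome, was not checked. Mrps10 and Mrpl48 each have 2 rows. Values given for Mrpl48 are those of its better covered row, annotated to a non-coding transcript, unless stated. The promoter annotation gives a coverage score that counts fragments near the TSS, and 62 rows (77.5%, 40 Mrpl and 22 Mrps) had a score above 100, against 52.4% of all promoters. The remaining 18 rows (Mrpl3, Mrpl17, Mrpl19, Mrpl23, Mrpl39, Mrpl40, Mrpl44, Mrpl45, Mrpl58, 1 row of Mrpl48, Mrps9, Mrps14, Mrps15, Mrps18a, Mrps22, Mrps25, Mrps30 and Mrps31) were low in coverage and are described separately.

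Mitochondria translate a small set of messages of their own genome, which encode core subunits of the respiratory chain and ATP synthase, on ribosomes that differ from those of the cytosol. The ribosomal RNAs of these mitoribosomes come from the mitochondrial genome, whereas all their proteins are encoded in the nucleus, made in the cytosol and imported. Some members descend from bacterial ribosomal proteins and others are found only in mitochondria, and their nuclear promoters are known as CpG-rich promoters of broadly expressed genes, several of them with sites for GABP and NRF-1.

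Nucleosome occupancy came from ChIP-MNase. In this assay an antibody recovers large pieces of chromatin, which are then cut by micrococcal nuclease while still on the beads. Pooled H3K4me1 sets, each of 2 replicates summed before deposit, came from dendritic cells (DCs) differentiated in vitro from bone-marrow progenitor lines, non-stimulated or treated with LPS (100 ng/ml, 1 h), and from 3T3 fibroblasts, an established mouse line, non-stimulated or treated with TNF-α (5 ng/ml, 1 h). Single H3K4me1 libraries, 2 a group, came from control and BAF-knockdown fibroblasts, non-stimulated or after the same TNF-α treatment. The knockdown used a stable retroviral shRNA against a sequence shared by Brg1 and Brm, the ATPases of the BAF remodelling complex, in cells sorted for GFP. From TNF-stimulated fibroblasts there were also 2 libraries for RNA polymerase II phosphorylated at serine 7 (S7P) and 1 set for serine 5 (S5P), whose label does not say whether replicates were combined.

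Among the 15 libraries, 63.5% to 90.2% of the 10 bp bins of promoters with a score above 100 held any signal. Read depth cannot be recovered from these values, because they are normalised to the surrounding 1 kb, and the 4 pooled sets carry no replicate error. The study gives a range of sequencing depths over its replicate samples. The deposited expression values, which are from other samples of the same cell-types, were higher by rank in DCs for 8 of 8 DC markers and in fibroblasts for 7 of 8 fibroblast markers, the exception being Tgfbi. In the pooled non-stimulated sets themselves the NDR at these promoters was lower in DCs for 5 of 8 DC markers and for 4 of 8 fibroblast markers. The NDR alone thus separated the cell-types little at these few promoters. Among them Col1a2, Col3a1 and Twist1 had coverage scores below 100 (55.5, 53.75 and 29.25). In the study, clustering of occupancy around all promoters placed DC and fibroblast samples apart. The knockdown cannot be checked from occupancy.

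Upstream sequences of 8 members show elements that were more frequent in the members than in other active promoters. The Sp1 motif and the CCAAT box, counted below, are not marked. The stretches, 99 bases each, run from 100 to 2 bp upstream of the TSS in mm9 and are printed 5′ to 3′ on the strand of the gene. Capitals mark matches on either strand to an ETS or GABP site (CCGGAAG), an NRF-1 site (GCGCANGCG), a YY1 site (AAGATGGCG) or a Ronin (Thap11) site (ACTACANNT). Mrps16, Mrpl52 and Mrpl43 are shown for the ETS site close to the TSS, Mrpl22 for ETS and NRF-1 sites together, Mrpl32 for NRF-1 sites alone, Mrpl36 for a YY1 site and Mrpl42 and Mrpl34 for the Ronin site.
Mrps16 (chr14:21212779-21212877, minus strand): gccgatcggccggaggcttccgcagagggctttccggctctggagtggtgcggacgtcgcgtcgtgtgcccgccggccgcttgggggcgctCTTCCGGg
Mrpl52 (chr14:55045647-55045745, plus strand): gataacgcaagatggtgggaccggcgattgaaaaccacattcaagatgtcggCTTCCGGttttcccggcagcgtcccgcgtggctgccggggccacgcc
Mrpl43 (chr19:45080934-45081032, minus strand): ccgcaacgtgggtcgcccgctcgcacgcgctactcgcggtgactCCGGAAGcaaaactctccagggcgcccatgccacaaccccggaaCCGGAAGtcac
Mrpl22 (chr11:57985057-57985155, plus strand): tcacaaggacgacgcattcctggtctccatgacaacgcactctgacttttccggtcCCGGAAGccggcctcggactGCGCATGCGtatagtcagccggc
Mrpl32 (chr13:14705306-14705404, minus strand): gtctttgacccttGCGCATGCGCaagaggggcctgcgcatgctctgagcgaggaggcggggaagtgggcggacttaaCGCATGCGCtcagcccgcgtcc
Mrpl36 (chr13:73468358-73468456, plus strand): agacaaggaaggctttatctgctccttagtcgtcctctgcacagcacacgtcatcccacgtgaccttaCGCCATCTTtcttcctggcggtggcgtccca
Mrpl42 (chr10:94964563-94964661, minus strand): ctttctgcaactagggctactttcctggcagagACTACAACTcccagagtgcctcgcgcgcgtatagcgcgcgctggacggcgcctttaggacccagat
Mrpl34 (chr8:73988726-73988824, plus strand): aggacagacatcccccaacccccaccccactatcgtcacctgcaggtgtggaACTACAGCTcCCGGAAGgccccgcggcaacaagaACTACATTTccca

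Matches were counted from 200 bp upstream to 50 bp downstream of the TSS, 1 row a gene, on both strands. The ETS motif was the commonest of the 4, in 32 of 78 genes (41.0%), compared with 10.3% of all 25733 promoters with sequence and 22.7% of other active CpG-island promoters with a score above 100. Its 38 matches centred on −18.5 bp, and 32 of them lay between −60 and 20 bp of the TSS, inside the region where nucleosomes are usually depleted. In Mrps16 (homologue of bacterial S16) and Mrpl43 the printed stretch ends in or close to such a match. The NRF-1 motif occurred in 15 genes (19.2%), against 11.7% of active promoters and 16.7% of active CpG-island promoters. The median GC content of the members (61.0%) was closer to that of active promoters (62.1%) than to that of active CpG-island promoters (65.6%). The YY1 motif occurred in 9 genes (11.5% against 4.10%), with matches centred 13 bp downstream of the TSS, and the Ronin motif in 8 genes (10.3% against 5.27%).

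At least 1 of these 4 motifs was found in 53 of 78 genes (67.9%), in comparison with 31.8% of active promoters, 41.7% of active CpG-island promoters and 20.8% of all promoters. No matches of different motifs overlapped in a member, whereas in Mrpl32 NRF-1 matches on opposite strands overlap each other. Other elements were counted in the same way. The Sp1 motif (GGGCGG) occurred in 39 genes (50%, against 72.5% of active CpG-island promoters and 43.7% of all promoters), the CCAAT box in 26 (33.3% against 33.6% of all promoters), the TATA box (TATAAA) in 4 (5.13%, against 3.88% of active CpG-island promoters and 10.4% of all promoters), AP-1 (TGACTCA) in 2 (2.56%, against 1.97% and 3.89%) and the ZBTB33-like motif (CTCGCGAG) in 1 (1.28% against 1.04% of all promoters). The NF-kB motif (GGGANTTTC), bound by a main effector of LPS and TNF-α, had 0 matches in the members and occurred in 0.898% of all promoters. A match is a string of letters and no evidence of binding.

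**Figure D1:**
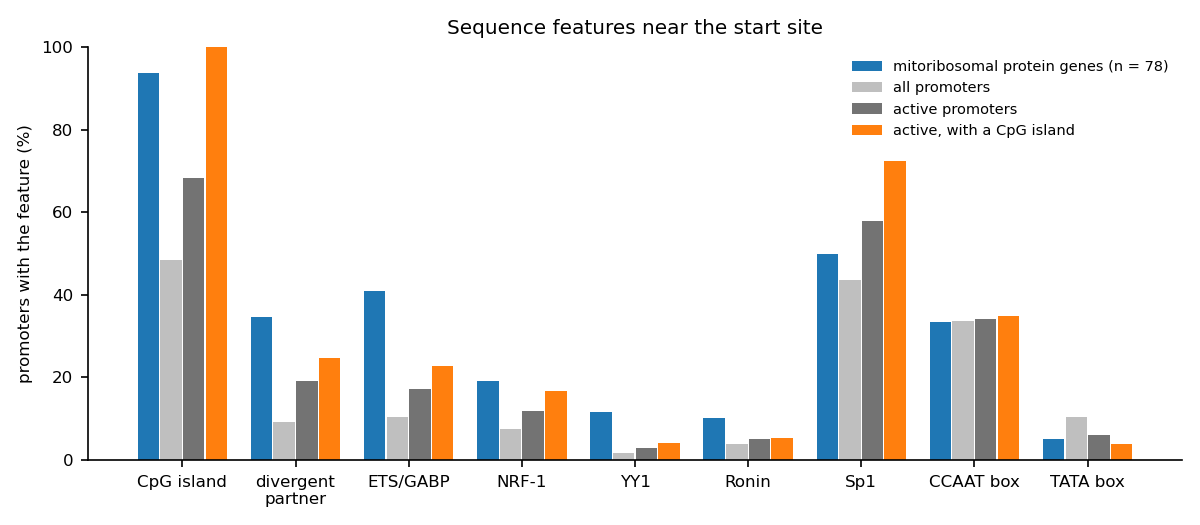
Share of promoters (y axis, percent) with each sequence feature (x axis) for the 78 mitochondrial ribosomal protein genes, all promoters, other active promoters with a score above 100 and those of them with a CpG island. Motifs were counted from 200 bp upstream to 50 bp downstream of the TSS. The ETS motif, in 41.0% of the member genes against 10.3% of all promoters, and the divergent partner, in 34.6% against 9.18%, were both more frequent in the members than in the other 3 groups.

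A CpG island, called within 200 bp of the TSS, covered 73 of 78 genes (93.6%), against 48.3% of all promoters and 68.3% of active promoters, and Mrps9, Mrps11, Mrps12, Mrps21 and Mrpl34 had none. A TSS of another gene on the opposite strand within 1000 bp upstream, a divergent arrangement, was present for 27 genes (34.6%), against 9.18% of all promoters, 19.1% of active promoters and 24.8% of active CpG-island promoters. Mrpl46 and Mrps11, both members, start 43 bp apart, so their windows cover nearly the same DNA and are not independent. Several other partners also serve mitochondria, such as Twnk (mitochondrial DNA helicase), 117 bp from Mrpl43, Ndufb5 (complex I), 309 bp from Mrpl47, Sars2 (mitochondrial seryl-tRNA synthetase), 188 bp from Mrps12, and Ptcd2, 109 bp from Mrps27. Others do not, such as Psma2 (proteasome), next to Mrpl32, Fau (cytosolic ribosomal protein), 138 bp from Mrpl49, and Tcp1 (chaperonin), 375 bp from Mrpl18.

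Almost all member genes were expressed before stimulation. Expression values, deposited with the annotation, lay above 0.02 times the mean of all promoters, the threshold for an active promoter, in 77 of 80 rows in DCs and 74 in fibroblasts, and in both for 73 rows, against 48.1% and 40.2% of all promoters. By rank, 58 of 78 genes were in the top 25% of promoters in each cell-type, and the median percentile was 83.2 in DCs and 86.4 in fibroblasts. The highest values were 11.3 FPKM for Mrpl52 in DCs (median 1.62) and 101 FPKM for Mrpl33 in fibroblasts (median 16.4). The scales of the 2 cell-types differ, so levels were not compared between them.

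The mean occupancy profile of the 62 covered rows had the shape of an active promoter in every set. Occupancy fell upstream of the TSS and rose to a peak, the +1 nucleosome, at 125 bp in non-stimulated DCs and at 135 bp in the other 3 pooled sets. The nucleosome-depleted region (NDR) was taken as the bins from −150 to 0 bp and the flank as those from −1000 to −500 bp. Mean NDR occupancy over mean flank occupancy was 0.461 in non-stimulated DCs, 0.361 in LPS-stimulated DCs, 0.356 in non-stimulated fibroblasts and 0.267 in TNF-stimulated fibroblasts. Other active promoters had 0.570, 0.550, 0.504 and 0.458, and those with a CpG island 0.486, 0.456, 0.433 and 0.369. The members thus had the lower ratio in all 4 pooled sets against both groups.

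**Figure D2:**
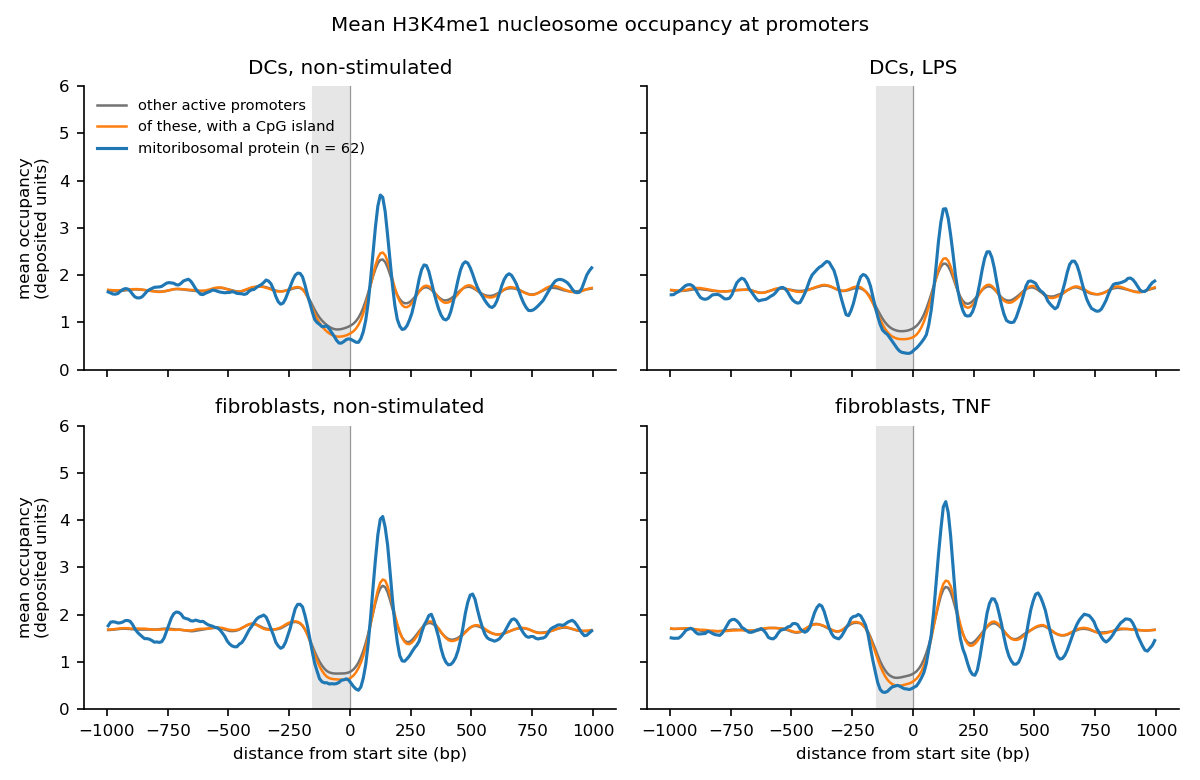
Mean nucleosome occupancy (y axis, deposited units) against distance from the TSS (x axis, bp) in the 4 pooled sets, for the 62 member rows with a score above 100, for other active promoters and for those of them with a CpG island; the NDR is shaded grey. The members' curve falls lower before the TSS and peaks higher at 125 to 135 bp.

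The +1 peak differed more from that of other promoters than the NDR did. Relative to the flank, the highest mean occupancy from 0 to 250 bp was 2.18 in non-stimulated DCs, 2.09 in LPS-stimulated DCs, 2.34 in non-stimulated fibroblasts and 2.66 in TNF-stimulated fibroblasts. Active CpG-island promoters reached 1.47, 1.40, 1.62 and 1.61. The members were above them in 15 of 15 libraries, whereas for the NDR ratio they were below active promoters in 14 of 15 and below active CpG-island promoters in 10 of 15. A mean over 62 rows is less smooth than one over many more promoters, and how much this adds to the height of its highest bin was not tested.

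At single promoters the NDR was expressed as a log2 NDR ratio, with 0.1 added to both means, and a value at or below −1 was called depleted. In non-stimulated DCs 40 of 62 rows were depleted (64.5%; 38.0% of all 13559 covered promoters), and in LPS-stimulated DCs also 40 (40.8% of all). In fibroblasts 45 rows were depleted without stimulation (72.6%; 39.5% of all) and 48 with TNF-α (77.4%; 43.5% of all). Active CpG-island promoters were nearer to the members, with 57.4%, 60.8%, 62.6% and 69.4% depleted in the 4 sets. The members' median log2 NDR ratio was −1.33, −1.86, −1.78 and −3.17 in this order, and that of all covered promoters −0.58, −0.65, −0.61 and −0.70. Since the NDR held no signal at all in 5, 12, 15 and 23 rows, the lowest values are set by the added 0.1 and say only that no fragment was seen there.

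**Figure D3:**
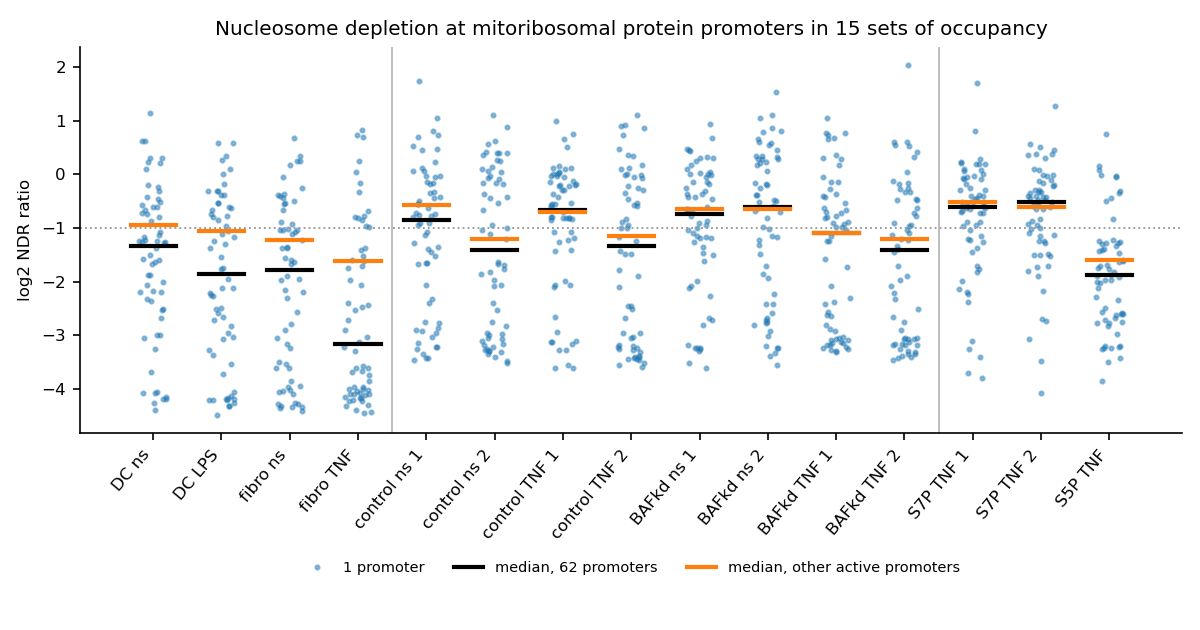
Log2 NDR ratio (y axis) of the 62 member rows in each of the 15 libraries (x axis), with the members' median (black) and the median of other active promoters (orange) marked and a dotted line at −1. Member medians run from −3.17 in pooled TNF-stimulated fibroblasts to −0.52 in an S7P library, and single rows spread from below −3 to above 0 in each library.

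In the single H3K4me1 libraries of fibroblasts the members were nearer to active promoters. Depleted rows numbered 28 and 34 of 62 in the 2 libraries of non-stimulated control cells (30.8% and 40.8% of all covered promoters) and 22 and 33 in TNF-stimulated control cells (31.9% and 40.9%). In BAF-knockdown cells they numbered 26 and 26 without stimulation (30.9% and 33.4%) and 32 and 38 with TNF-α (39.2% and 39.9%). These shares, 35.5% to 61.3%, were above those of other active promoters (37.8% to 53.6%) in 6 of 8 libraries and above those of active CpG-island promoters (41.6% to 60.1%) in 2 of 8.

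The same members were not depleted everywhere. In all 4 pooled sets 25 of 62 rows were depleted (15.9% of all covered promoters and 20.7% of active ones), and 4 rows in none (34.0% of all), namely Mrpl11, Mrpl21, Mrpl33 and Mrps21. Mrpl54 and Mrps21, chosen after their values were seen, are the ends of this range. Mrpl54, a large-subunit protein found in mitochondria and not bacteria, was depleted in 15 of 15 libraries, with pooled log2 NDR ratios of −2.20 and −3.02 in DCs and −3.61 and −4.11 in fibroblasts, and single H3K4me1 libraries from −3.42 to −1.61. Mrps21, homologue of bacterial S21 and without a CpG island, was depleted in 0 of 15, with pooled values of 0.31 and 0.27 in DCs and −0.38 and −0.16 in fibroblasts. Mrps21 was nevertheless among the more highly expressed members, at the 96.7th and 91.7th percentile. Across the 62 rows, expression and log2 NDR ratio had a Spearman correlation of −0.00 in DCs and −0.04 in fibroblasts, and expression and patterning level one of 0.158 and 0.275. These are correlations across genes, which are not replicates.

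In non-stimulated DCs the lowest log2 NDR ratios were those of Mrpl32 (−4.40), a bacterial L32 homologue matured by the m-AAA protease, Mrpl38 (−4.26), Mrps6 (−4.19), Mrpl20 (−4.19) and Mrps27 (−4.16), a pentatricopeptide repeat protein. The highest were those of Mrpl21 (1.14), Mrpl11 (0.63), which forms the base of the stalk, Mrpl48 (0.62), Mrps21 (0.31) and Mrps7 (0.30). In non-stimulated fibroblasts the lowest were Mrpl2 (−4.42), homologue of the bacterial L2 at the peptidyl transferase centre, Mrpl18 (−4.36), Mrpl47 (−4.34), Mrps5 (−4.33) and Mrps26 (−4.33). The highest were Mrpl33 (0.69), Mrpl48 (0.35), Mrps28 (0.25), Mrpl11 (0.25) and Mrps12 (0.18), the last a homologue of S12 of the decoding centre. Mrpl11 and the covered row of Mrpl48 were thus without an NDR in both cell-types, at values above 0. The lowest values have an empty or nearly empty NDR, so their order is set by the flank and the added 0.1. The NDR of Mrpl32, Mrps6 and Mrps27 was empty in both cell-types.

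Neither the Mrpl nor the Mrps rows were lower throughout. The 40 Mrpl rows had median log2 NDR ratios of −1.24, −2.23, −1.95 and −3.41 in the 4 pooled sets, in the order above, and the 22 Mrps rows −1.74, −1.06, −1.35 and −3.01. The gap was widest with LPS, where the Mrpl rows were lower, and no test was run. The 26 rows with a divergent partner had −1.54, −2.00, −2.08 and −2.75 and the 36 without one −1.25, −1.86, −1.61 and −3.26. The 26 rows with an ETS match had −1.55, −1.42, −1.24 and −3.35, and the 36 without −1.27, −2.12, −2.25 and −3.12. For each of these divisions the order turned between sets. The 18 rows of low coverage had medians of −1.33, −3.34, −1.86 and −2.97. Among them, Mrps14 had −4.49, −4.68, −0.13 and −4.32, Mrpl3 −0.89, −0.01, −3.89 and −0.84, Mrpl19 −1.39, −3.10, −1.52 and −4.31, Mrpl44 −0.57, −3.68, −0.74 and −3.32, and Mrps22 −2.95, −0.53, −4.09 and −1.16.

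The patterning level, the sum over bins of the mean active profile times the occupancy of a promoter, both centred, was high in the members. Their median was 17.1 in non-stimulated DCs, 15.7 with LPS, 17.7 in non-stimulated fibroblasts and 20.2 with TNF-α, and that of other active CpG-island promoters 10.6, 10.8, 12.2 and 12.4. It was above that of active promoters in 15 of 15 libraries. The members were left out of the mean active profile.

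The position of the +1 nucleosome, taken as the centre of the highest bin from 0 to 250 bp, was narrow across members. In non-stimulated fibroblasts 48 of 62 rows (77.4%) had it in the bins from 100 to 170 bp, against 44.9% of other active promoters, and in non-stimulated DCs 45 rows (72.6%) against 42.8%. In each of the stimulated pooled sets 41 rows (66.1%) had it there, against 40.3% in DCs and 43.1% in fibroblasts.

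Its position was also more alike between sets than over all covered promoters. It lay within 30 bp in non-stimulated and TNF-stimulated fibroblasts for 46 of 62 rows (74.2%; 45.4% of all covered promoters with a position in both), and in non-stimulated and LPS-stimulated DCs for 43 (69.4%; 46.2% of all). Between non-stimulated DCs and fibroblasts it did so for 43 (69.4%; 43.5% of all), and between the stimulated sets for 40 (64.5%; 41.0% of all). In all 4 pooled sets the positions lay within 30 bp of each other for 19 of 62 rows (30.6%), compared with 12.6% of all covered promoters and 14.9% of active ones. Of these 19 rows, 16 were Mrpl and 3 Mrps (Mrps2, Mrps5 and Mrps17). For the pooled fibroblast sets, respiratory chain promoters had a share like that of the members (54 of 73, 74.0%).

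**Figure D4:**
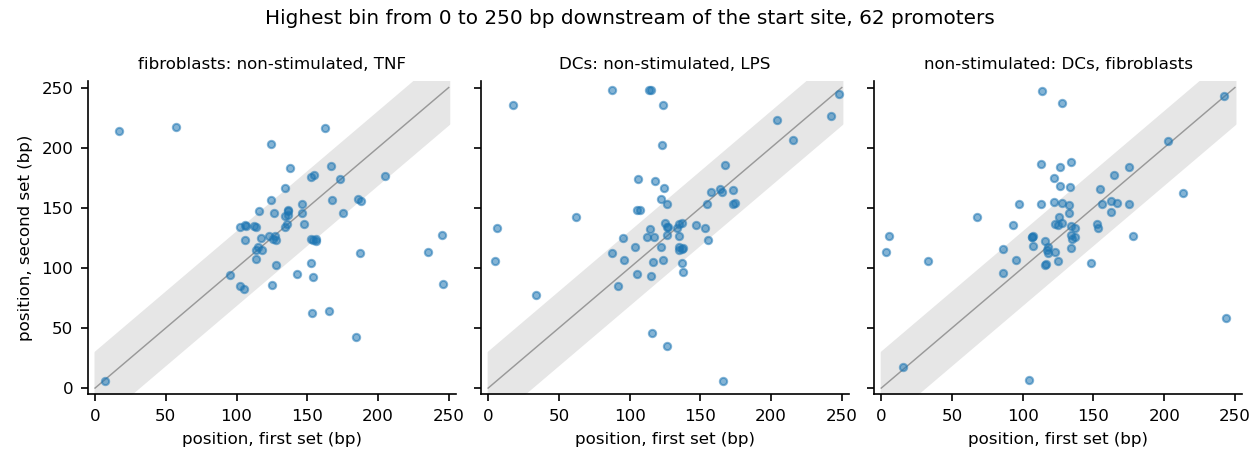
Position of the +1 nucleosome (bp from the TSS) in one pooled set against another for the 62 member rows, 1 point a row, moved by a small fixed jitter, with a line at equality and a grey band of 30 bp either side of it. Most points gather at 100 to 170 bp on both axes, and 46 of 62 lie within 30 bp for non-stimulated against TNF-stimulated fibroblasts.

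In 8 members the 4 positions spanned 10 bp, the width of 1 bin. Mrpl43, a mitochondria-specific protein of the large subunit, had its +1 nucleosome at 125 bp in non-stimulated DCs and at 135 bp in the other 3 sets, and Mrpl52 at 135, 135, 135 and 145 bp. Mrpl20 had 115, 105, 115 and 115 bp, Mrpl46 165, 165, 175 and 175 bp, and the others were Mrpl1, Mrpl49, Mrpl50 and Mrpl55. All 8 had Mrpl symbols. In single libraries the position was noisier. Replicates placed it within 30 bp for 25 of 57 rows with a position in both libraries of non-stimulated control cells (43.9%; 36.3% of all), 26 of 56 of TNF-stimulated control cells (46.4%; 34.8%), 31 of 57 of non-stimulated BAF-knockdown cells (54.4%; 36.8%) and 24 of 55 of TNF-stimulated BAF-knockdown cells (43.6%; 37.9%). For Mrpl43 the single H3K4me1 libraries gave positions from 35 to 205 bp, and 1 of them held no signal in the window.

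The −1 nucleosome was taken as the highest bin from −350 to −50 bp. With and without stimulation it lay within 30 bp for 25 of 59 rows with a position in both sets of DCs (42.4%) and 24 of 57 in fibroblasts (42.1%), close to 42.1% and 40.6% of all covered promoters. Between cell-types it did so for 32 of 60 rows without stimulation (53.3%) and 30 of 55 with stimulation (54.5%), against 38.7% and 36.7% of all covered promoters.

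Between DCs with and without LPS single members differed in both directions. Without replicates no test was possible, and a difference of more than 1 in log2 NDR ratio was called. It was lower with LPS for 20 of 62 rows (32.3%; 21.0% of all covered promoters) and higher for 7 (11.3%; 14.8% of all), and the median difference was −0.09, against −0.07 over all promoters. The largest decreases were those of Mrpl18, from 0.24 to −4.05, Mrpl55, from −0.60 to −4.20, and Mrpl48, from 0.62 to −2.83. The Mrpl48 row of low coverage was instead higher with LPS, by 1.03. The largest increases were those of Mrpl32, from −4.40 to −0.54, and Mrps33, from −4.07 to −0.31. Mrps18b, one of several S18 homologues of the mitoribosome, went from −4.08 to 0.00, but with LPS neither its NDR nor its flank held signal, so that the second value is set by the added 0.1. Without it 6 of 61 rows were higher. The counts depend on the added value, since 11 rows were lower with 0.5 in its place and 13 higher with 0.02. Of the members' bins, 90.2% held signal without LPS and 85.0% with it, and the part of this in the differences was not tested.

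In the pooled fibroblast sets the log2 NDR ratio was lower with TNF-α for 22 of 62 rows (35.5%; 23.4% of all covered promoters) and higher for 8 (12.9%; 15.8% of all), with a median difference of −0.37 against −0.09. With 0.5 added in place of 0.1, 13 rows were lower and 5 higher, and with the rows of low coverage kept 13 were higher. The set with TNF-α also held signal in fewer of the members' bins (78.4%, against 83.8%) and had more empty NDRs, whose part in the counts was not tested. Mrps24 (homologue of bacterial S3) went from −0.05 to −4.18, Mrps12 from 0.18 to −3.61 and Mrpl28 from −0.54 to −4.31. In the other direction Mrps5 (homologue of S5) went from −4.33 to 0.83, Mrps7 from −3.97 to 0.70 and Mrpl32 from −4.27 to −1.42. The low value of Mrps5 was seen in the non-stimulated pooled set alone, and in the 14 other libraries its ratio ran from −0.73 to 0.83.

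Between non-stimulated DCs and fibroblasts, 13 of 62 rows were lower in DCs (21.0%; 17.2% of all covered promoters) and 24 higher (38.7%; 22.0% of all), with a median difference of 0.36 against 0.05. With 0.5 added, 5 rows were lower and 11 higher. The largest differences, DCs first, were those of Mrps33 (−4.07 and −0.36), Mrps12 (−3.26 and 0.18), Mrpl20 (−4.19 and −1.03), and, in the other direction, Mrpl18 (0.24 and −4.36), Mrps5 (0.21 and −4.33) and Mrps7 (0.30 and −3.97). These comparisons share sets with the ones above and so are not independent of them. Values of the same members correlated weakly between several sets. The Spearman correlation across the 62 rows was 0.36 for DCs with and without LPS and 0.23 for fibroblasts with and without TNF-α. It was 0.11 to 0.31 between single H3K4me1 replicates. Over all covered promoters these were 0.52, 0.54 and 0.25 to 0.38. Members had 0.45 between the stimulated pooled sets, 0.48 between S7P replicates and 0.55 between S5P and pooled TNF-stimulated fibroblasts. All covered promoters had 0.48, 0.27 and 0.49 there.

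Of the remaining members chosen for description, Mrps2 (homologue of bacterial S2) had log2 NDR ratios of −1.88, −2.49, −3.06 and −0.82, Mrps16 of −4.06, −4.13, −1.63 and −3.13, Mrps34 of −0.20, −0.77, −0.55 and −1.61, and Mrpl4 of −0.51, 0.10, −0.24 and −3.97 in the 4 pooled sets.

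The replicated test of TNF-α used the 8 single H3K4me1 libraries of fibroblasts, with knockdown and stimulation as 2 terms, in limma across 13559 covered promoters with Benjamini-Hochberg adjustment. By limma 0 of 62 members passed an adjusted p of 0.05 for the log2 NDR ratio (0% of all), and 6 had an unadjusted p below 0.05 (5.75% of all). All 6 were lower with TNF-α (Mrpl12, Mrpl20, Mrpl48, Mrpl49, Mrps2 and Mrps18b). Within control cells alone, however, 4 members (6.45%) had an unadjusted p below 0.05 by limma, of which 3 were higher. Of all 13559 covered promoters 855 were below it there, a similar share. The members' median difference, −0.16 in log2 NDR ratio (−0.08 over all promoters), was 0.14 within control cells and 0.09 without replicate 1 of the non-stimulated knockdown cells. For the patterning level 0 passed by limma and 5 were below the unadjusted threshold (5.71% of all).

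Mrpl12, homologue of the L7/L12 stalk protein that recruits translation factors, was nearest to the threshold. Its log2 NDR ratio was −0.03 and 0.41 in non-stimulated control cells and −0.37 and 0.28 in non-stimulated knockdown cells, and −3.28 and −3.52 in TNF-stimulated control cells and −3.05 and −3.05 in TNF-stimulated knockdown cells. The 4 stimulated libraries lay below all 4 non-stimulated ones with no overlap. The mean NDR occupancy was 0.644 to 1.30 without stimulation and 0 to 0.0339 with it. With an empty or nearly empty NDR, the level and closeness of the stimulated ratios depend on the flank and the added 0.1. The same holds for the size and SE of the difference. The difference was −3.30 ± 0.31 (SE), with a limma adjusted p of 0.0713 after Benjamini-Hochberg. In the pooled fibroblast sets, however, Mrpl12 was depleted in both states, at −4.26 without and −4.01 with TNF-α, a difference of 0.25. The replicated libraries and the pooled sets of the same treatment therefore gave different values at this promoter, and the reason was not tested.

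Mrps18b had a difference of −1.93 ± 0.55 (SE, limma adjusted p = 0.790). Its values were −1.65 and −0.07 in non-stimulated control, 0.03 and −1.01 in non-stimulated knockdown, −3.27 and −2.11 in stimulated control and −3.13 and −1.90 in stimulated knockdown cells, which do not overlap between the 2 states. For Mrps2 the difference was −1.50 ± 0.57 (SE, limma adjusted p = 0.849). In the pooled sets Mrps18b and Mrps2 were instead higher with TNF-α, by 0.68 and 2.25.

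No member passed the threshold for BAF knockdown. For the log2 NDR ratio limma called 0 of 62 members and 0 of 13559 promoters, with 5 members at an unadjusted p below 0.05 (5.25% of all), and for the patterning level also 0 and 0, with 3 members (5.86% of all). The members' median difference was 0.10 in log2 NDR ratio, against 0.00 over all promoters, and 0.88 in patterning level, against 0.05. The direction of both depends on single groups or libraries. The first was −0.15 without replicate 2 of TNF-stimulated control cells and −0.06 without replicate 1 of TNF-stimulated knockdown cells. The second was −0.05 within non-stimulated cells, and 0.19 without replicate 1 of TNF-stimulated control cells. Per library, the members' median log2 NDR ratio was −1.07 ± 0.37 in control and −0.96 ± 0.36 in knockdown cells (SD, n = 4), and their median patterning level 5.35 ± 0.64 and 6.43 ± 0.97. The arms overlap in both. Within TNF-stimulated cells alone the median patterning level was 4.89 ± 0.59 in control and 7.11 ± 0.85 in knockdown cells (SD, n = 2), and the +1 peak over the flank 1.53 ± 0.08 and 2.12 ± 0.16, without overlap. Other active promoters in the same libraries had patterning levels of 4.00 ± 0.52 and 4.60 ± 0.25. Their +1 peak over the flank was 1.42 ± 0.09 and 1.45 ± 0.12 (SD, n = 2). Without stimulation the members' patterning level was 5.81 ± 0.21 and 5.75 ± 0.48 (SD, n = 2). Their +1 peak over the flank was then 1.69 ± 0.27 and 1.88 ± 0.35, with overlap in both measures. Whether knockdown altered the response to TNF-α was tested by the interaction term, for which limma called 0 members. At an unadjusted p below 0.05 there were 10 members in log2 NDR ratio (16.1%; 6.11% of all), in 8 of which the difference with TNF-α was lower in knockdown than in control cells, and 3 in patterning level (5.66% of all). The members' median interaction was −0.61 in log2 NDR ratio, against −0.16 over all promoters, and 1.85 in patterning level, against 0.60. The interaction was not planned and was fitted in the main setting alone. Its dependence on single libraries was not tested.

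The members with an unadjusted p below 0.05 for BAF knockdown in log2 NDR ratio were Mrpl48, Mrpl30, Mrps28 and Mrps33, with a difference of −2.41, −2.04, −1.92 and −1.34, and Mrpl24, with 2.22. The limma adjusted p was 0.740 for Mrpl48 and above 0.9 for the others. For comparison, Mrpl54 had a difference of 0.13 ± 0.48 (SE).

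Chromatin recovered with antibodies to phosphorylated RNA polymerase II differed between the 2 marks. In the S5P set, which was deposited without a replicate, 51 of 62 rows were depleted (82.3%; 48.3% of all covered promoters), the NDR to flank ratio of the mean profile was 0.299 and the +1 peak was 3.44 times the flank, against 2.44 for active CpG-island promoters. The +1 nucleosome lay in the bins from 100 to 170 bp in 54 rows (87.1%), compared with 56.1% of active promoters, and within 30 bp of its place in pooled TNF-stimulated fibroblasts in 49 (79.0%; 47.0% of all). In the S7P libraries 20 and 21 rows were depleted (32.3% and 33.9%; 34.1% and 30.6% of all), and the ratio was 0.646 and 0.658. S5P thus had the highest share of depleted members of all 15 libraries and S7P the lowest.

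Against the control TNF-stimulated H3K4me1 libraries, limma called 0 of 62 members for S7P (0% of all), and 7 had an unadjusted p below 0.05 (10.1% of all), 6 of them higher in S7P. This count rests on single libraries, since it was 15 without replicate 1 and 1 without replicate 2 of the control cells. Mrpl20 had the largest difference among these, 4.14 ± 0.45 (SE, limma adjusted p = 0.290), followed by Mrpl12 with 2.87 ± 0.64 (SE, limma adjusted p = 0.324). Mrpl12 had −1.15 and 0.08 in the S7P libraries and −3.28 and −3.52 in the H3K4me1 libraries, without overlap. The H3K4me1 values come from an empty or nearly empty NDR. The same H3K4me1 libraries entered the test of TNF-α, so the results for Mrpl12 and Mrpl20 in both tests are not independent. Antibody and type of sequencing, paired-end for S7P and S5P and single-end for H3K4me1, cannot be told apart. The H3K4me1 libraries of this test also came from the control cells of the knockdown, whereas the S7P labels name no control. A difference between these cell populations cannot be told apart from the other differences either.

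Other nuclear genes of mitochondrial translation, from lists drawn up by function, were compared in the pooled sets. Of 13 covered mitochondrial tRNA synthetase promoters, 9, 11, 4 and 10 were depleted in non-stimulated and LPS-stimulated DCs and non-stimulated and TNF-stimulated fibroblasts, of 11 mitoribosome assembly factors 6, 7, 6 and 6, of 6 translation factors 3, 1, 2 and 3, and of 5 mitoribosome subunits with other names 2, 1, 1 and 1. The cytosolic ribosomal proteins (69 covered promoters) had 69.6%, 60.9%, 69.6% and 72.5% depleted and the respiratory chain (73 promoters) 67.1%, 67.1%, 60.3% and 64.4%, near the members' 64.5%, 64.5%, 72.6% and 77.4%. The +1 nucleosome lay within 30 bp in non-stimulated and TNF-stimulated fibroblasts for 37 of 62 cytosolic ribosomal protein promoters with a position in both (59.7%) and for 54 of 73 respiratory chain promoters (74.0%), against 74.2% of the members. An ETS match was found in 37.9% of cytosolic ribosomal protein promoters and 21.3% of respiratory chain promoters, and a divergent partner in 16.1% and 25.8%.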

How the data were processed

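Reads were aligned to mm9 by the authors, who retained paired-end fragments between 140 and 180 bp, or lengthened single-end reads. Coverage per 10 bp bin was then scaled by that of the 1 kb around it and smoothed over 50 bp. The deposited signal is thus a relative coverage in 200 bins, from −1000 to 1000 bp of the TSS, and an empty bin was read as 0. The promoter annotation that the authors deposited gives the coverage score and the expression before stimulation, in FPKM from other RNA-seq samples. It also holds log2 expression differences upon stimulation, which were not used, so that inducible promoters were not removed from the active ones. Columns of other series numbered 0. The submitters' processing notes name Bowtie2 and bedtools.

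RefSeq identifiers were paired with symbols through the RefSeq gene table, which matched 24924 promoters (96.3%). Sequence came from an mm9 genome and 73 of 80 member TSSs lay within 50 bp of an annotated GENCODE transcript start. The position of a nucleosome was left blank where the window held no signal. A CpG island needed, within 200 bp of the TSS, over 50% GC and a CpG ratio (observed over expected) of more than 0.6. Models were fitted with limma 3.58.1 in R 4.3.3 on promoters with a score above 100, two-sided and adjusted by Benjamini-Hochberg over all of them, and their script was tested on simulated data. Other values were computed with Python 3.11.15, numpy 2.4.6 and pandas 2.3.3.

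Members and lists were chosen with earlier results of these data known. Members named are those past a test, the 5 lowest and 5 highest in each non-stimulated cell-type, the 3 largest differences each way in each pooled comparison, and 15 chosen by function. Alternatives were the pseudocount, the windows, the coverage filter, the square root of occupancy, the scale of a library, the template, a replicate block, the contrast within control or within non-stimulated cells, and leaving out each library. The study describes replicates as biological, and the labels do not say how they were grown. Replicate 1 libraries of the knockdown carry another tag in the file names, and replicate 2 alone was an alternative.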

Additional observations from a re-analysis of the deposited data

Results flagged for a closer look

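In 4 members the log2 NDR ratio moved by more than 1 in opposite directions upon stimulation of the 2 cell-types, LPS in DCs and TNF-α in fibroblasts. The difference between the cell-types was not tested, as each value is that of 1 pooled set. The ratio of Mrps33 rose by 3.76 in DCs and fell by 3.66 in fibroblasts, and that of Mrpl20 (homologue of bacterial L20) rose by 1.59 and fell by 3.07. The ratio of Mrpl47 (homologue of L29) changed by −1.79 in DCs and 1.31 in fibroblasts, and that of Mrpl15 by −1.24 and 1.07. Such opposite changes occurred in 6.45% of the 62 members and in 7.99% of all covered promoters, and 9 of the 13 members past 1 in both cell-types changed in the same direction.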

How the results depend on the processing

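Of 236 alternative values of the main counts and medians, 195 stayed within their limits. Most of the 236 were counts of limma calls, which were 0 in nearly all settings, and a count cannot change direction. Among the medians of the pooled sets 0 changed direction. The members' median differences in the replicated fits did change direction. For BAF knockdown that of the log2 NDR ratio ran from −0.15 to 0.29 on leaving out a library, and that of the patterning level was −0.0468 within non-stimulated cells. For TNF-α those of the log2 NDR ratio and the patterning level were 0.139 and −0.681 within control cells, and ran from −0.39 to 0.0932 and from −0.118 to 1.501 on leaving out a library. By limma with Benjamini-Hochberg adjustment, 1 member (Mrpl12, TNF-α) passed with the square root of occupancy (adjusted p = 0.0498) and with a pseudocount of 0.02 (0.0277), and 10 and 17 of all promoters did so, while 3 did with the NDR from −200 to 50 bp and 0 to 2 on leaving out a library, the 2 without control_TNF replicate 1. Over all alternatives the difference of Mrpl12 ran from −5.08 to −1.39 and its adjusted p from 0.0277 to 0.918. For the patterning level under BAF knockdown, 1 of all promoters passed with a score above 200. With a replicate block limma called 0 members in every planned comparison and the adjusted p of Mrpl12 was 0.254. Deviations of same-numbered libraries from their group means correlated across promoters by −0.00771 to 0.0197, so the numbers did not pair them promoter by promoter. A shift common to all promoters is not seen by such a correlation. In each group of single H3K4me1 libraries replicate 1 held signal in more bins of covered promoters (73.4% to 78.1%) than replicate 2 (63.5% to 69.7%). For S7P replicate 2 held more (80.0%, against 69.2%). At an unadjusted p below 0.05 the number of members ran from 2 to 7 (BAF knockdown, NDR), 1 to 5 (patterning), 1 to 8 (TNF-α, NDR), 1 to 7 (patterning) and 1 to 15 (S7P).

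With a pseudocount of 0.5, 11 members were lower and 4 higher with LPS, 13 lower and 5 higher with TNF-α, and 5 lower and 11 higher in DCs than in fibroblasts. A pseudocount of 0.02 gave 13 higher with LPS, the wider window 5 lower and 13 higher in DCs, the square root 8 lower in DCs, and keeping rows of low coverage 13 higher with TNF-α. The members' median log2 NDR ratio in non-stimulated and LPS-stimulated DCs and non-stimulated and TNF-stimulated fibroblasts was −1.0, −1.22, −1.23 and −1.71 with a pseudocount of 0.5, −0.87, −1.04, −1.07 and −1.39 with the wider window and −0.99, −1.20, −1.15 and −2.55 with the square root, and −3.94 in the last set with 0.02. The median patterning level was 10.5, 9.71, 10.9 and 12.4 with libraries divided by their mean, 9.47, 11.1, 10.6 and 12.3 with the square root, and 16.2 and 14.2 in DCs with low coverage kept. Where values moved, the cause was not tested.

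Pooled sets have no replicate error and S5P is 1 set. Single promoters are imprecise at this depth, since 1 to 20 of 62 members had an empty NDR in a single library. Absent calls do not show that values were equal.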
